A study of Mus musculus with 4 samples.

Results

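The t-complex interval is the proximal stretch of mouse chromosome 17 from 6 to 33 Mb (GRCm38), and its members here are the H1t peaks whose centres fall inside it. These were 644 of the 48681 peaks listed for the whole genome, beside 1219 peaks on the rest of chromosome 17. The choice used position only, together with 7 genes named with it (Tcp10b, Tcp10c, Smok2a, Smok2b, Tcte2, Igf2r and Prdm9). The first member was centred at base 6008566 and the last at 32921058, and the nearest peaks left out were centred at 5928219 and 33008026. Chromatin came from testicular cells of C57BL6 mice at postnatal day 20. There were 2 libraries made with the anti-H1t antibody and 2 input libraries made without antibody, and all 4 share this strain, age and tissue. The labels call the cells pachytene cells, while the methods take whole testes and describe no enrichment of spermatocytes, so other testicular cells are present, and marker expression was not measured. The labels do not give the number of mice. The peak caller joined the libraries of each kind, so every value below is from pooled libraries, without spread between replicates and without a test between libraries.

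H1t is a testis-specific variant of the linker histone H1, the histone that sits on the DNA entering and leaving the nucleosome, and it becomes abundant in pachytene spermatocytes during meiotic prophase. The t-complex is known in the mouse for t haplotypes, variants held together by inversions, which carriers transmit to most of their offspring through sperm. C57BL6 mice carry the ordinary form of the region. It holds duplicated testis genes (the Tcp10 and Smok families), the imprinted gene Igf2r, and Prdm9, which encodes the histone methyltransferase that places meiotic recombination hotspots. Much of the sequence around the Tcp10 genes is present in more than 1 copy.

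The peaks that carry the main comparison lie in copies of the same sequence, so the reference sequence (GRCm38, plus strand) is printed for them before the values. The first sequence is chr17:13067520-13067819, from a peak inside Tcp10b, and the next is chr17:13362046-13362345, the matching stretch of Tcp10c, of which the last bases run past the end of its peak. They were identical at 298 of 300 positions (99.3%), and capitals mark the 2 positions that differ. Each holds 200 intronic and 100 coding bases.
Tcp10b peak: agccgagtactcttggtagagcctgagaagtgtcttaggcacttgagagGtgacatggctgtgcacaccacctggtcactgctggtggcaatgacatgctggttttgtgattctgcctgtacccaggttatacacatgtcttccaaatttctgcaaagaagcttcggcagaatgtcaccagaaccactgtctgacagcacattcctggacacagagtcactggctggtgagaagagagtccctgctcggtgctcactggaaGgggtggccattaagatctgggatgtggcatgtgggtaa
Tcp10c peak: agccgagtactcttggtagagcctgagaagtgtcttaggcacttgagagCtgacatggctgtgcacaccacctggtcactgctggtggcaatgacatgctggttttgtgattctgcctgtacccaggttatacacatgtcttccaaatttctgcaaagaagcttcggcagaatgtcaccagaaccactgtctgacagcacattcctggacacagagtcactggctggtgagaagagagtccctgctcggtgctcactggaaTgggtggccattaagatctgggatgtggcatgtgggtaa

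A further copied sequence lies under a peak in a noncoding exon of 2700054A10Rik (chr17:13509662-13509945) and again in intergenic sequence before Smok2a (chr17:13204702-13204960), where it is part of a wider peak. Of 284 aligned positions 258 were identical, 25 were absent from the copy before Smok2a and 1 was a mismatch. Capitals mark the bases that differ or are absent from the other copy.
Peak in 2700054A10Rik: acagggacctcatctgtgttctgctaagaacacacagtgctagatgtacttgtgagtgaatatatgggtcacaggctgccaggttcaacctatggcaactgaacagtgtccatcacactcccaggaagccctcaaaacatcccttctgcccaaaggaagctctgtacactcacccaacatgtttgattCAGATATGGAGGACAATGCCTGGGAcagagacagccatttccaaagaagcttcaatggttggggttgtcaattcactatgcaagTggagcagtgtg
Copy before Smok2a: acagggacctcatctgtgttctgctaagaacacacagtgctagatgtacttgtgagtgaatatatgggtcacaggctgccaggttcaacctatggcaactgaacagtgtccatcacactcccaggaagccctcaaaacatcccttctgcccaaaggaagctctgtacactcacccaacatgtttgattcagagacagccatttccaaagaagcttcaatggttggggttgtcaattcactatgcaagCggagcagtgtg

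For the other genes, sequences are shown from a coding exon of Smok2a (chr17:13226445-13226744), an intron of Tcte2 (chr17:13757098-13757397), and the border of an intron and a coding exon of Igf2r (chr17:12711828-12712127). They stand for peaks within and outside the stretch of high background described below, and carry no capitals because no part of them was singled out.
Smok2a peak: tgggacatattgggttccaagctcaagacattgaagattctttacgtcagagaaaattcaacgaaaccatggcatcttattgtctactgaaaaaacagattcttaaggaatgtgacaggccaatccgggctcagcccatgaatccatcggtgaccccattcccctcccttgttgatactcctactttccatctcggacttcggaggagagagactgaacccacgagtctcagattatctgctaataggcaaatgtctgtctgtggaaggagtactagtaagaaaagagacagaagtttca
Tcte2 peak: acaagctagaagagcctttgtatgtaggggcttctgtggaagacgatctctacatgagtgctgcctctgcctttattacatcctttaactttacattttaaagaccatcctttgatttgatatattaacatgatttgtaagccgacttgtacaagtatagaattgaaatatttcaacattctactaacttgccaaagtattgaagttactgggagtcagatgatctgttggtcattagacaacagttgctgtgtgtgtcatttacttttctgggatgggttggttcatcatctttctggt
Igf2r peak: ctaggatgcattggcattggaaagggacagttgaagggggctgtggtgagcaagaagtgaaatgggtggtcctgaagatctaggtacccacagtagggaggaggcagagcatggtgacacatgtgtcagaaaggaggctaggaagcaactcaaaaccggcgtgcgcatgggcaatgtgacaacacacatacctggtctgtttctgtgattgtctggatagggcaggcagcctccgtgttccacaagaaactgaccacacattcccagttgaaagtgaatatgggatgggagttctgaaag

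The peak with the highest fold of the interval was of another kind, a tandem repeat. A stretch of 300 bases from it (chr17:29105506-29105805) is shown because 290 of them are masked as repeat sequence in the assembly. The commonest word of 14 bases in the whole peak, GAGTTCTACAACTC, occurred 37 times on the plus strand and 154 times as its reverse complement, GAGTTGTAGAACTC, with overlapping matches counted. No other peak of the interval held it on either strand (1 of 644, 0.155%), nor did any of the 1219 peaks on the rest of the chromosome.
Highest fold peak: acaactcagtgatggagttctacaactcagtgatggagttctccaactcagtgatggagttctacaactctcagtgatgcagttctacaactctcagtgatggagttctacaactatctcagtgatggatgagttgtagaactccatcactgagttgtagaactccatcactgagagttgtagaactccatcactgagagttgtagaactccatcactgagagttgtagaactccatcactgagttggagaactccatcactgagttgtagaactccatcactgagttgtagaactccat

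H1t peaks were denser in the interval than along the rest of chromosome 17. The interval held 24 peaks per Mb of sequence without gaps, over 26.8 Mb, against 18.8 per Mb over 64.9 Mb in the rest. The ratio was 1.28 (95% interval 1.16 to 1.41). Against all other autosomes, with 46503 peaks, it was 1.19 (1.1 to 1.29). These intervals cover counting error only and treat neighbouring peaks as separate events. Peaks covered 585 kb, or 2.18% of the interval, against 1.35% of the rest.

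The excess was not seen once peaks of mostly copied sequence were left out. A word of 50 bases was counted as repeated where it recurs elsewhere in the assembled genome on either strand. Repeated words made up 14.6% of the interval, with 7.03% recurring only inside the interval, and 9.21% of the rest. Among the peaks, 199 of 644 consisted mostly of repeated words (30.9%, Wilson interval 27.5 to 34.6) against 89 of 1219 (7.30%, 5.97 to 8.90), and in 153 of the 199 at least 50% of the words recurred only within the interval. Leaving such peaks out of both regions gave a ratio of 0.952 (0.851 to 1.06). The 445 remaining peaks of the interval stood at 19.4 per Mb of unrepeated sequence, and the 1130 of the rest at 19.2, a ratio of 1.01 (0.905 to 1.13). With words of 100 bases, mostly repeated peaks made 22.4% of the interval's peaks, and the ratios were not run at that length. The methods give paired reads longer than either word, so a recurring word need not leave a read without a single best position. How reads with several equally good positions were placed is not given in the sources used here, and its part in these counts was not tested.

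Most peaks of the interval were shallow. The pileup, the caller's depth of overlapping ChIP fragments averaged over the peak in broad mode, had a median of 9.51 against 9.37 in the rest. The lowest value listed was 9. The fold is the pileup plus 1 over the local background plus 1, where the local background is what the caller expected there from the input. Its median was 1.73 against 1.72, with a range of 1.48 to 2.57 in the interval, and the rest reached 28.4. Median width was 679 and 647 bp.

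No peak of the interval passed q < 0.05, the caller's p adjusted over the genome. A count of 0 in 644 allows a share of up to 0.466%, and 0.255% of all listed peaks passed. On the rest of the chromosome 9 of 1219 passed (0.738%, 0.389 to 1.40). A fold of at least 2 was reached by 25 peaks (3.88%, 2.64 to 5.67) against 40 in the rest (3.28%, 2.42 to 4.44) and 3.64% of all listed peaks, so this share was near the background. An unadjusted p below 0.01 was reached by 96 peaks (14.9%, 12.4 to 17.9) against 138 (11.3%, 9.66 to 13.2) and 11.8% of all peaks. The list was made at an unadjusted p of 0.05, so it holds weak regions by design.

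Local background also differed between the interval and the rest. It had a floor of 4.95 fragments, the genome-wide value, and was called raised where it exceeded that by over 2%. Raised values were found at 215 of the 644 peaks (33.4%, 29.9 to 37.1) against 228 of 1219 on the rest of the chromosome (18.7%, 16.6 to 21). The share among all listed peaks was 22.3%. Since this background comes from the input, a raised value means that input fragments, too, were more numerous there. With only peaks at the genome-wide value, the density ratio of the interval to the rest was 1.05 (0.932 to 1.17). The excess was thus not seen without raised peaks either, and raised background and copied sequence were not separated.

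**Figure D1:**
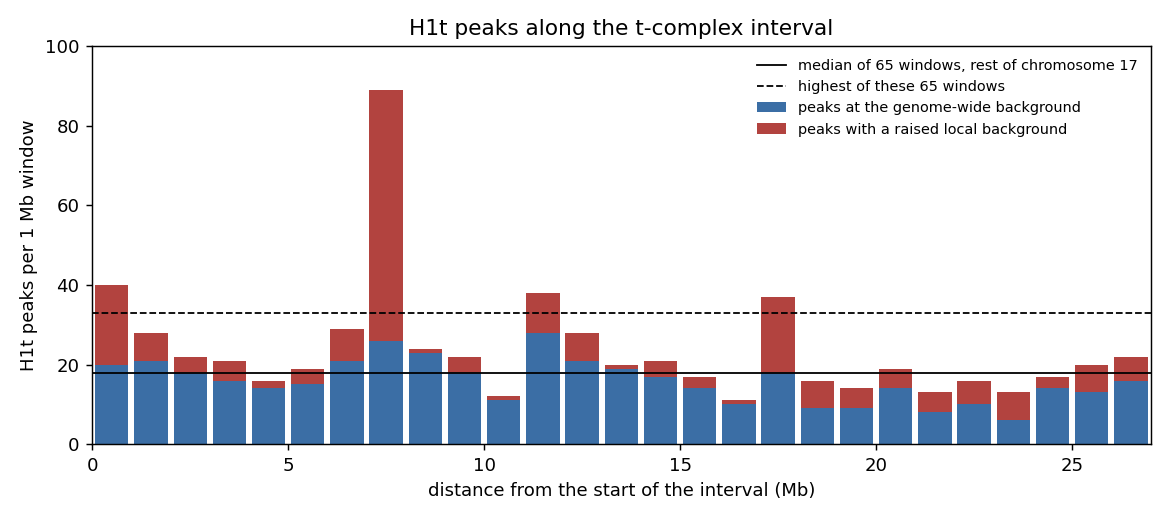
Bars give the number of H1t peaks in each 1 Mb window (y axis) by distance from the start of the t-complex interval in Mb (x axis), split into peaks with a raised local background and peaks at the genome-wide value. Lines mark the median (18) and the highest (33) of the 65 windows on the rest of chromosome 17, and 4 of the 27 windows of the interval lie above the upper line, the tallest with 89 peaks.

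Peaks were unevenly spread along the interval. Across its 27 windows of 1 Mb the lowest count was 11, the median 20, the second highest 40 and the highest 89. On the rest of chromosome 17 the 65 windows ran from 4 to 33, with a median of 18. The 5 windows with the most peaks began at 13 Mb (89), 6 Mb (40), 17 Mb (38), 23 Mb (37) and 12 Mb (29). The 5 with the fewest began at 22 Mb (11), 16 Mb (12), 27 and 29 Mb (13 each) and 25 Mb (14). A single window thus held 13.8% of the peaks and 29.3% of those with a raised background in 3.31% of the sequence. Without it 555 peaks remained, and the density ratio to the rest was 1.14 (1.03 to 1.26).

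Across the windows, the number of peaks went with the share of repeated words. Pearson's r was 0.68 and Spearman's rho 0.56 over the 27 windows. Without the window from 13 to 14 Mb these were 0.64 and 0.51 over 26 windows, and without the 2 windows farthest from the median share, those from 13 and from 6 Mb, 0.49 and 0.45 over 25. On the rest of chromosome 17 they were 0.025 and 0.044 over 65 windows. There the repeated share reached only 22.4%, against 49.3% in the interval, and the part of this narrower range was not tested. The correlations are descriptions of the same pooled libraries, and neighbouring windows share copies of a sequence. High repetition did not always go with many peaks, since the window from 22 Mb had 28.1% repeated words and the fewest peaks of the interval.

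**Figure D2:**
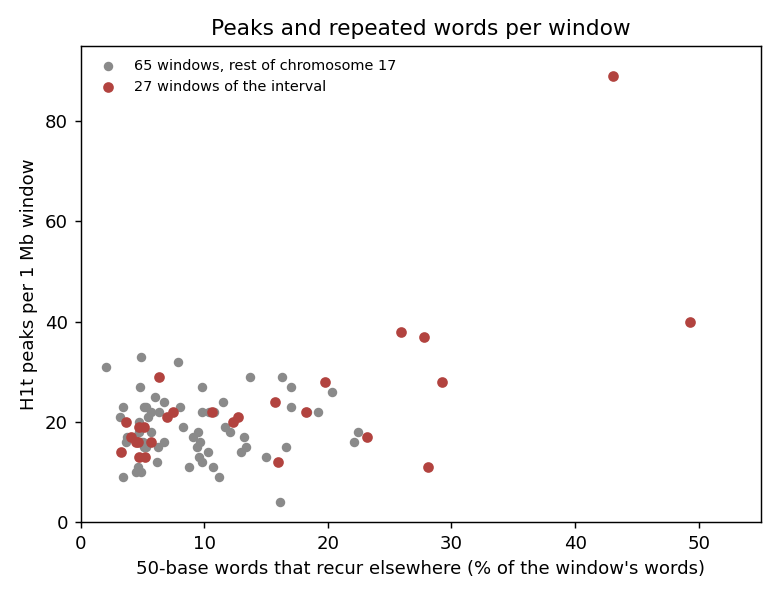
Each point is a 1 Mb window, with the share of its 50-base words that recur elsewhere in the genome (x axis, %) and its number of H1t peaks (y axis). The windows of the interval (27) reach 49.3% repeated words and 89 peaks, while the 65 windows of the rest of chromosome 17 stay at or below 33 peaks.

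The window from 13 to 14 Mb holds Tcp10b, Smok2a, Smok2b, Tcp10c and Tcte2, and its high values lay mostly in a part of it. Of its 89 peaks 63 had a raised background, 26 had an unadjusted p below 0.01, 8 had a fold of at least 2 and 70 consisted mostly of repeated words. Median pileup was 13.6, median background 7.36 and median width 1062 bp. Of the 41 peaks of the interval with a pileup of at least 15, this window held 30, and the rest of chromosome 17 had 12 such peaks.

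Along the window, 16 peaks lay in the first 175 kb, which runs from Sod2 (superoxide dismutase of mitochondria) through Tcp10b to Unc93a. Only 4 of these were raised, and their backgrounds were 4.95 to 6.28 with a median of 4.97. Then came 19 peaks around Smok2a and Smok2b, from chr17:13177972-13255224, of which 18 were raised, with a median background of 8.56 and a median pileup of 15.2. After an assembly gap of 50 kb followed 35 peaks around Tcp10c, chr17:13312766-13464156, of which 34 were raised, with a median background of 8.44 and a median pileup of 14.9. Peaks covered 42.4% and 42.8% of the last 2 stretches and 7.73% of the first. Bounds of these stretches were set after the values were seen.

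Beyond Tcp10c the values fell back. Of 9 peaks up to the second gap of 63.0 kb, 7 were raised, and behind the gap 10 peaks from Tcte2 to Gm7168 had backgrounds of 4.95 to 5.03, with none raised. The peak with the highest pileup of the interval, 101 fragments, lay 4.09 kb before this second gap, at chr17:13586349-13587522. Its local background was 67.8, so its fold of 1.48 was the lowest of the interval.

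**Figure D3:**
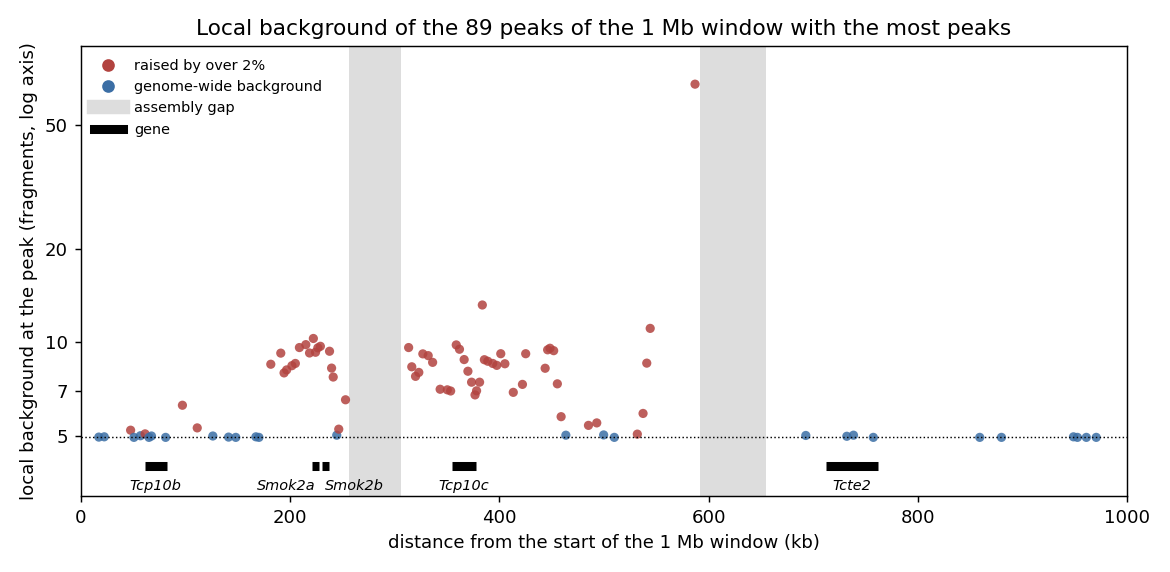
Points are the 89 peaks of the window from 13 to 14 Mb, by distance from its start in kb (x axis) and local background in fragments on a log axis (y axis). Grey bands are assembly gaps, black bars are genes and the dotted line is the genome-wide value of 4.95. Raised points fill the stretch from Smok2a and Smok2b to beyond Tcp10c. Most peaks near Tcp10b, and those near Tcte2, lie on or close to the line.

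Raised background and repetition did not always go together in this window. Of the stretches bounded after the values were seen, the first 175 kb had 70.3% repeated words and that around the Smok2 genes 49.7%. Their backgrounds went the other way. In the window, 51 of 70 mostly repeated peaks were raised (72.9%, 61.5 to 81.9) and 12 of 19 others (63.2%, 41.0 to 80.9), intervals that overlap. Around Smok2a, Smok2b and Tcp10c, all 8 peaks with less than 50% repeated words were raised, with backgrounds of 6.98 to 10.3. In the other 26 windows 42 of 129 mostly repeated peaks were raised (32.6%, 25.1 to 41.0) and 110 of 426 others (25.8%, 21.9 to 30.2), and on the rest of the chromosome 32 of 89 (36%, 26.8 to 46.3) and 196 of 1130 (17.3%, 15.2 to 19.7).

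**Figure D4:**
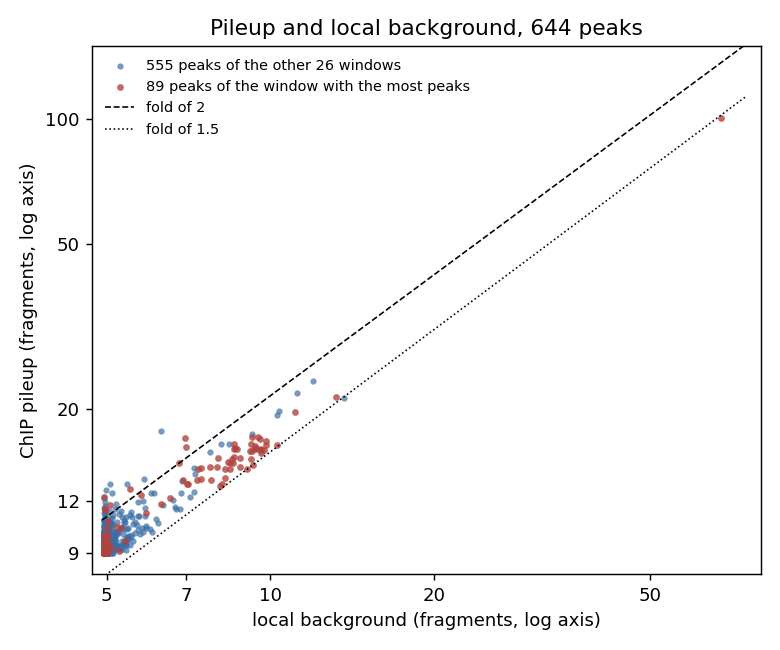
Local background (x axis) and ChIP pileup (y axis), both in fragments on log axes, for the 644 peaks. Pileup rose with local background, which the cutoff of the list requires in part. Most peaks of the window from 13 to 14 Mb lie between the lines for a fold of 1.5 and a fold of 2, up to the peak with a pileup of 101.

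Copies of a sequence can be compared directly. Pairs of peaks that shared at least 30% of their 50-base words, without words of high copy number, numbered 39 and involved 65 peaks. There were 16 such pairs within the window from 13 to 14 Mb, sharing 32.3% to 95.4%, 7 near 17 Mb, 6 near 14 to 15 Mb and 5 in the window from 6 Mb. In the 16 pairs the member farther from the centromere had the higher background in 12 and the higher pileup in 12. These pairs are not independent, since a peak can belong to more than 1 of them.

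The Tcp10 genes, expressed in testis and named for the t-complex, are copies that differed in pileup and background. Tcp10b (21.4 kb) held 4 peaks, with pileups of 9.23, 9.90, 10.3 and 9.52 over backgrounds of 5.08, 4.95, 5 and 4.95. Tcp10c (22.7 kb) held 6 peaks, with pileups of 16.4, 17.1, 15.3, 13.1, 14.4 and 14.9 over backgrounds of 9.82, 9.51, 8.81, 8.08, 7.45 and 6.78. The values of the 2 genes did not overlap. Their folds did, at 1.68 to 1.89 in Tcp10b and 1.55 to 2.04 in Tcp10c. In the copies printed above, the Tcp10b peak had a pileup of 10.3 and a fold of 1.89 and the Tcp10c peak a pileup of 17.1 and a fold of 1.72, so the copy with more ChIP fragments had the lower fold.

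Tcp10a, the third family member, lies 5737 kb before Tcp10b (distance between their matching peaks) and held 1 peak, with a pileup of 10.7, a background of 5.63 and a fold of 1.76. The copies in 2700054A10Rik and before Smok2a stood in the opposite order along the chromosome. The peak in 2700054A10Rik had a pileup of 12.3 at the genome-wide background of 4.95, hence a fold of 2.23, while the peak holding the copy before Smok2a had a pileup of 15.3, a background of 8.56 and a fold of 1.71. In both of the printed pairs, the copy with the higher pileup had the lower fold, which the cutoff of the list permits at a higher background.

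Smok2a and Smok2b encode sperm motility kinases, relatives of the kinase that acts as the t-complex responder. Smok2a (6.47 kb) held 3 peaks with pileups of 16.4, 14.7 and 16.1, backgrounds of 10.3, 9.30 and 9.61 and folds of 1.54, 1.52 and 1.61, and with 46.4 peaks per 100 kb it was the densest coding gene of the interval among those with at least 3 peaks. Smok2b (6.93 kb) held 1 at its end, with a pileup of 16.3, a background of 9.37 and a fold of 1.67. Smok4a, annotated as a transcribed pseudogene, held none. The 3 loci together held 4 peaks, 19.6 per 100 kb (Poisson interval 5.35 to 50.3), all raised. None of the 4 consisted mostly of repeated words.

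Tcte2, another testis-expressed gene of the complex, lies beyond the second gap and looked like most of the chromosome. Its 49.4 kb held 3 intronic peaks, with pileups of 9.13, 9.96 and 9.33, backgrounds of 4.99, 5.03 and 4.95 and folds of 1.69, 1.82 and 1.74. Their sequence had no repeated words. Tcp1, a chaperonin subunit, Tcp11 and Tcte3 held no peak. The 7 t-complex and testis-expressed genes inside the interval held 14 peaks in 152 kb, or 9.19 per 100 kb (5.02 to 15.4). Over all 431 coding genes of the interval it was 2.21 per 100 kb (1.96 to 2.47). Of the 14 peaks, 8 were raised and 11 mostly repeated, and Tcp10c held 6 and Tcp10b 4. This list was written with earlier results of these data known.

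Igf2r encodes the receptor that clears insulin-like growth factor 2 and is expressed from the maternal allele in the mouse, with Airn transcribed against it from the paternal allele. Igf2r (87.3 kb) held 2 peaks, with pileups of 9.26 and 10.6, backgrounds of 4.95 and 5.09 and folds of 1.72 and 1.91, the second centred in a coding exon. Airn held 2 peaks, with pileups of 9.33 and 9, and 1 of them also overlapped Mas1, the angiotensin-(1-7) receptor. Slc22a3, a transporter of organic cations in the same imprinted domain, held 6, with pileups of 9 to 10.3. Slc22a2, its neighbour, held 2, one of them with a fold of 2.17. Plg (plasminogen) held none. The 7 genes of the domain had 12 peaks, 3.11 per 100 kb (1.61 to 5.43), an interval that includes the 2.21 of all coding genes of the interval.

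Prdm9 (21.3 kb) held no peak, and the nearest lay 139 kb away. Only 147 of the 431 coding genes of the interval held a peak (34.1%), so a gene without a peak was common. Prdm9 fell in the longest peak-free stretch of the interval, chr17:15404387-15797838, which spans 393 kb and also holds Psmb1 (a proteasome subunit), Tbp (the TATA-binding protein), Pdcd2 and Chd1 (a chromatin remodeller). The next stretch in length, chr17:27302729-27695561, was also 393 kb long and holds Grm4 and Hmga1. The median of the 643 stretches between neighbouring peaks was 21.6 kb. Just outside the Prdm9 stretch, Dll1, a Notch ligand, and Fam120b each held 1 peak, with pileups of 9.35 and 9.31 at the genome-wide background. Over the 7 genes of this segment the 2 peaks made 1.64 per 100 kb (0.199 to 5.93).

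In the Brachyury and quaking segment, Pde10a, a phosphodiesterase, held 7 peaks in 461 kb and Rps6ka2, a ribosomal S6 kinase, 6 in 133 kb. Map3k4, a kinase of the stress response, held 3, and Sft2d1 and Agpat4 held 1 each. T, the gene of Brachyury, Qk and Mpc1 held none. Elsewhere in the interval Btbd9 held 8 peaks in 361 kb, and Sytl3 6 in 79.0 kb.

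Inside the interval, the genes proposed to distort transmission and the dynein light chains of the Dynlt1 family held no peak. These 8 genes, among them Tagap, Fgd2, Nme3 and Dynlt1a, span 69.6 kb, and 0 peaks there allow up to 5.30 per 100 kb. A density equal to that of all coding genes thus cannot be told from none at this size. Tiam2, on the same list but outside the interval, held 6 peaks in 205 kb, 1 with a fold of at least 2. Of the dynein and axoneme genes, Rsph3b, a radial spoke protein, and Dnah8, a dynein heavy chain of the sperm tail, held 3 each, Ift140 2 and Rsph3a 1. The list also holds Spaca6, a sperm membrane protein needed for fusion with the egg and no part of the axoneme, with 1 peak. Its 8 genes together made 2.09 per 100 kb (1 to 3.84).

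**Figure D5:**
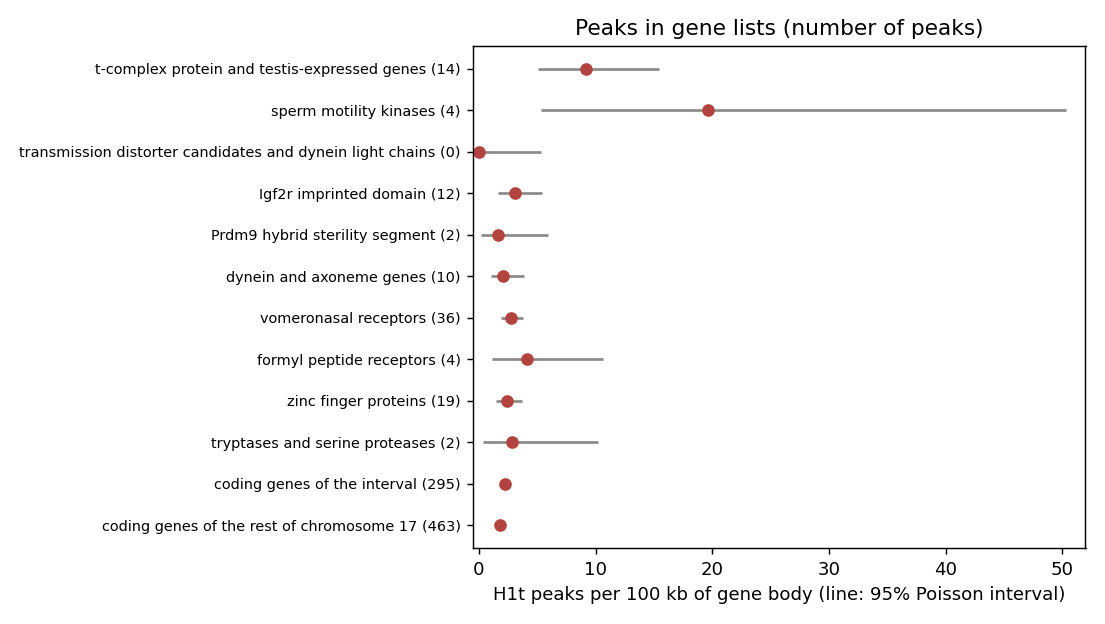
Points are H1t peaks per 100 kb of gene body (x axis) for the gene lists whose totals are given (y axis, with the number of peaks in parentheses), and lines are 95% Poisson intervals for counting error. The t-complex list (9.19) and the sperm motility kinases (19.6) lie to the right of all coding genes of the interval (2.21). Intervals of the other lists within the t-complex interval include that value. All lists were written with earlier results of these data known, and the lines treat neighbouring peaks as separate events. With peaks at the genome-wide background only, the t-complex list held 6 and the kinases 0.

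Of the 37 peaks of the window from 23 Mb, 18 lay around vomeronasal receptor genes, which encode pheromone receptors of sensory neurons in the nose. Vmn2r115 (18.8 kb) held 4 peaks, with pileups of 13.6, 10.1, 16 and 16.5 over backgrounds of 5.85, 6.07, 9.33 and 8.13. Vmn2r114 held 3, with pileups of 15.7, 17.4 and 12.1 over backgrounds of 7.74, 9.25 and 6.61, and Vmn2r117 held 2, with pileups of 12.8 and 12.5 over 4.98 and 5.12 and folds of 2.31 and 2.21. These genes neighbour each other, and these 18 peaks had a median background of 6.36, with 14 raised and 13 at an unadjusted p below 0.01. Unlike the Tcp10c stretch, only 1 of the 18 consisted mostly of repeated words. Vmn2r102, at another position, held 3 at the background of 4.95. Over all 74 vomeronasal genes, 25 held a peak (33.8%), near the 147 of 431 coding genes of the interval (34.1%), and the 36 peaks made 2.72 per 100 kb (1.91 to 3.77). Formyl peptide receptors, their neighbours, held 4 peaks in Fpr3, 1 of which also overlapped Fpr2.

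Near 17 Mb, 25 peaks lay between 17040608 and 17271114, 19 of them mostly repeated, and 7 overlapped the zinc finger genes Zfp97 and Zfp960. Products of such genes include repressors of transposable elements. Zfp97 (25.4 kb) held 5 peaks, in each of which every word was repeated. Their pileups were 9.19, 9.34, 11.8, 9 and 9.38 over backgrounds of 4.95 to 5.20, so copied sequence was here not joined by a high background. Zfp943 held 4 peaks and Zfp960 2. The 33 Zfp genes of the interval made 2.39 per 100 kb (1.44 to 3.72), and 11 of them held a peak (33.3%), a share close to the 34.1% of all its coding genes. At 14 to 15 Mb, 9030025P20Rik (22.9 peaks per 100 kb) and Gm3417 (20.6), with 3 peaks each, and Gm3448, with 6, were likewise in copied sequence at backgrounds of 4.95 to 6.21. Of the 13 serine protease genes, Prss27 and Prss29 held 1 each.

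The first dense window, from 6 Mb, also consisted largely of copies. Its 28 peaks between 6377817 and 6717886 included 26 that were mostly repeated and 16 with a raised background, but the median background there was 5.13, well under the 8.44 around Tcp10c. The 6 peaks of Sytl3, which binds Rab proteins in vesicle transport, had pileups of 9 to 10.1.

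The 10 highest folds of the interval ran from 2.16 to 2.57, and the next was 2.13. The highest, 2.57, belonged to the tandem repeat printed above (chr17:29102206-29109104), 6899 bp wide and 1.48 kb from Cdkn1a, the cell cycle inhibitor p21. Its pileup was 17.7 over a background of 6.29, with an unadjusted p of 2.21e-05 and a q of 0.0511. The second, 2.34, lay 4.87 kb from Unc93a2 at a pileup of 13.2. A peak 0.851 kb before Tcp10c had 2.26, and one 0.785 kb beyond it 2.16. The others lay in 2700054A10Rik and Vmn2r117, given above, in an intron of Cyp4f37 (2.20), a cytochrome P450 gene, in Slc22a2, and 113 kb from Zfp960 (2.22). Apart from the first, their q values ran from 0.351 to 0.966.

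In both regions the share of peak centres near gene starts was below the share of the bases there, though within counting error in each. Centres of 13 peaks lay within 1 kb of the start of a coding gene (2.02%, 1.18 to 3.42), where 2.96% of the bases lie. On the rest of the chromosome this was 14 peaks (1.15%, 0.685 to 1.92) for 1.80% of the bases. In both regions the share of the bases lies inside the interval of the peaks' share. Counted by any overlap with these stretches, which favours wide peaks, they were 25 in the interval (3.88%, 2.64 to 5.67) and 17 in the rest (1.39%, 0.873 to 2.22). No peak overlapped the annotated promoter window, 250 bases before to 50 after the start, of Tcp10b, Tcp10c, Smok2b, Tcte2, Igf2r or Prdm9, so no promoter is printed. The nearest peak was 0.122 kb from the window of Tcp10b, 0.230 kb from that of Smok2b and 0.601 kb from that of Tcp10c. Smok2a had no promoter entry in the table used.

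Introns held 309 centres (48.0%, 44.1 to 51.8) and intergenic sequence 264 (41.0%, 37.3 to 44.8), close to their shares of the bases, 50% and 40.4%. Coding exons held 22 (3.42%, 2.27 to 5.12) for 2.72% of the bases, noncoding exons 32 (4.97%, 3.54 to 6.93) for 3.60%, and UTRs 17 (2.64%, 1.65 to 4.19) for 3.24%. The coding and noncoding exon shares were above, and the UTR share below, their shares of the bases, which lie inside the intervals. Masked repeats made up 29.6% of the bases under peaks and 32.4% of the interval, and on the rest of the chromosome 34.3% and 34.0%. Median GC content of the peaks was 45.8% against 44.1%, where the sequence itself has 44.2% and 42.1%. In both regions the median GC content of the peaks was above that of the sequence, and no test of these differences was made.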

How the data were processed

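Per the labels and methods, chromatin of mouse testicular cells at postnatal day 20 was sequenced from 2 H1t ChIP and 2 input libraries. After filtering, the pooled ChIP held 39221290 fragments and the pooled input 30377916, and no depth per library is given. The authors used FastQC 0.11.5 for read quality and Bowtie2 in local mode for alignment to GRCm38.p5, and then ran MACS2 2.1.2 in broad mode at an unadjusted p of 0.05, pooling the ChIP libraries and, separately, the input libraries (genome size set to 1.87e+09). The deposited signal is the pileup of fragments. The authors' fold is a ratio to the local background. The deposited −log10 values are of the unadjusted p and of q, although the file header says that q was not computed. Peak numbers run from 310 to 48990, and the 309 lower numbers were not analysed here.

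The local background was worked back as the pileup plus 1 over the fold, less 1. It is approximate, since pileup and fold are averages over each broad peak. Peaks were placed on GRCm38.p6 (RefSeq sequence, soft-masked, of the same coordinates) and GENCODE vM21 genes. Sequences and promoter windows were taken from RefSeq. Repeated words were counted over all chromosomes by exact match (peaks: 50% or more of their words). A gene holds a peak that overlaps its body by at least 1 base, and each peak centre was assigned to 1 class, coding exons first. Density ratios carry exact intervals and shares Wilson intervals, at the 95% level. Named were the 7 genes given with the interval, genes of 11 lists with a peak (lists made by symbol: those with the most peaks), the coding genes with most peaks or most per kb, genes nearest the 10 highest folds, and the 5 fullest and emptiest windows. Some genes that this rule names are not reported here. The members and lists were chosen with earlier results of these data known. Counting functions were tested on simulated data. Left out were 0 columns of values for single samples. The analysis ran in Python 3.11.15 with pandas 2.3.3, numpy 2.4.6, numba 0.67.0, matplotlib 3.10.9 and scipy 1.17.1. Alternatives tried were stricter peak sets, merging within 3 kb, shifted windows, other word lengths and other overlap rules.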

Additional observations from a re-analysis of the deposited data

How the results depend on the processing

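The density ratio of the interval to the rest of chromosome 17 (1.28) was 1.51 for peaks with a fold of at least 2, 1.68 for an unadjusted p below 0.01 and 1.61 for bases covered. It was 1.14 both with peaks merged within 3 kb and without the window from 13 to 14 Mb, an alternative chosen after seeing the data, and 1.05 with peaks at the genome-wide background only. It fell below 1 without mostly repeated peaks (0.952) and for q < 0.05 (0, from 0 peaks against 9). With mostly unrepeated peaks per Mb of unrepeated sequence, also chosen after seeing the data, it was 1.01. Against the other autosomes it was 1.19, and by any overlap with the interval 1.28.

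The highest count in a window (89) was 87 with windows shifted by 500 kb, in the shifted window that ends within the one from 13 Mb, and in the latter 39 with merged peaks and 8 at a fold of at least 2. It was 28, at 17 Mb, with peaks at the genome-wide background and 33, at 23 Mb, without mostly repeated peaks. Masked bases under the peaks were 38.2% for a fold of at least 2 (29.6% for all, 30.1% at the genome-wide background). Wide peaks weigh more in this share, and those with a fold of at least 2 include the tandem repeat, 6899 bp wide and 93.0% masked. Raised backgrounds made 18% where over 10% was asked instead of over 2%. Mostly repeated peaks made 35.4% with words of 36 bases and 22.4% with words of 100. Peaks in the gene lists numbered 152, 147 by their centres, 104 at the genome-wide background and 6 at a fold of at least 2.

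No paired analysis was possible because the peaks were called on pooled libraries, and for the same reason leaving out each library in turn was not run. The depth of single libraries was not given, and at pileups near 9 fragments a small difference between copies was not detectable.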
